A study of Mus musculus with 2 samples.

Results

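Adhesion genes best known from neurons and synapses were followed through the nuclei of the mouse stria vascularis: Opcml, Lsamp, Ntm, Negr1, Nrxn3, Il1rapl1, Il1rapl2, Lrfn5 and Nrcam. They are 9 of the 48816 features in the count matrices and were picked by symbol, after their levels by cell type in these same data had been seen, so their class levels are given as a description and no test is made of them. The tissue came from CBA/J mice at postnatal day 30 (P30), and the study names no introduced mutation, transgene or drug for them. The groups were 2 single-nucleus libraries, one of isolated nuclei fixed in methanol (MethFix) and one of nuclei from tissue held in RNAlater (RNAlater). Each library pooled several animals, for which the labels and the methods give different numbers, and each preservation method has 1 library. Expression was measured as unique molecular identifiers (UMIs), the molecules counted for a gene in a nucleus, and the level of a gene in a class is given in CPM, its UMIs over all UMIs of the nuclei of that class on the usual scale.

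The stria vascularis is the epithelium of the cochlear lateral wall that secretes potassium into the endolymph. Marginal cells face the endolymph, intermediate cells are melanocytes, and basal cells are joined by tight junctions and seal the epithelium. Spindle and root cells lie at its edges, and Reissner's membrane borders the same fluid space. The IgLON proteins (Opcml, Lsamp, Ntm and Negr1) are immunoglobulin-domain proteins held to the membrane by a lipid anchor and known from neuronal surfaces. Nrxn3 is a neurexin, the presynaptic receptor of neuroligins. Il1rapl1, Il1rapl2 and Lrfn5 are postsynaptic proteins, of which Il1rapl1 and Lrfn5 bind presynaptic receptor-type tyrosine phosphatases. Nrcam belongs to the L1 family of axonal adhesion molecules.

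The matrices held 4748 barcodes in MethFix and 3868 in RNAlater, of which 3372 and 2311 passed the filters on genes, counts, mitochondrial share and doublets. The median was 3498.5 and 4702 UMIs per nucleus kept. The libraries were not independent: 3323 barcodes stood in both matrices. Over these barcodes, 89.4% of the MethFix UMIs were matched in number by RNAlater UMIs of the same gene and barcode. For the members that share ran from 89.6% for Il1rapl2 to 97.8% for Opcml. Of the nuclei kept, 66.9% of MethFix and 97.6% of RNAlater were kept in both libraries (53 of the 96 and 51 of the 52 spindle nuclei). Values of the 2 libraries are therefore treated as resting in large part on the same nuclei and molecules, though single molecules were not compared. MethFix and RNAlater are used as the names of the deposited matrices. Which preservation method the nuclei of the shared barcodes went through cannot be told from the counts. No p-value is given, and all intervals are exact 95% intervals that cover counting error only. Clusters were computed without the members and without 76 further adhesion genes, and were named from marker lists, so a difference from the study may come from the rebuilt names. There were 1105 and 671 marginal nuclei, 853 and 522 intermediate, 752 and 592 basal, 96 and 52 spindle, 34 and 56 root, and 156 and 159 Reissner's membrane nuclei in MethFix and RNAlater. The 6 intermediate markers, led by Tyr and Dct of melanin synthesis, summed to 27569 and 25733 CPM in intermediate nuclei and to between 301 and 1265 in the other main classes. The class was named from these same markers, so the sums describe it and are no separate evidence for its name. The root class covered different nuclei in the libraries, since 20 nuclei of the RNAlater root cluster fell in an unnamed MethFix cluster. Of nuclei kept in both libraries and placed in a class or matched cluster in both, 2147 of 2191 (98.0%) were placed alike.

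The members are long genes. On GRCm38 (GENCODE M21) their spans ran from 273.08 kb for Nrcam (chr12:44328885-44601964, plus strand) to 2197 kb for Lsamp (chr16:39984361-42181679, plus strand), and exons covered between 0.368% (Il1rapl2) and 4.89% (Nrcam) of the span. Among 11017 genes with enough UMIs and a known span, whose median was 29.1 kb, 36 were longer than Opcml, 5 were longer than Lsamp and 489 were longer than Nrcam. Genes that stood out in a class were longer in general, with a median span of 56.3 kb against 25.9 kb for the rest. Opcml (chr9:27790775-28925410, plus strand) and Ntm (chr9:28994750-29963141, minus strand) are neighbours whose ends face each other across 69.3 kb with no annotated gene wholly between them. The features that overlap a member on either strand had 0 UMIs in the MethFix nuclei kept.

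Promoters are shown for Opcml and Nrcam, which shared their highest main class, and for the paralogs Il1rapl1 and Il1rapl2, which were both present in spindle nuclei (RefSeq, GRCm38.p6, 250 bases before to 50 after the start, read on the gene's strand). Capitals mark the GC box (GGGCGG). Also searched on both strands were the E-box CATGTG and the E-box with the letters CACGTG, of the kind read by the melanocyte factor MITF, and the TATA box, written here as TATAAA. The windows are chr9:27791049-27791348, plus strand for Opcml, chr12:44328635-44328934, plus strand for Nrcam, chrX:88115899-88116198, minus strand for Il1rapl1 and chrX:137570504-137570803, plus strand for Il1rapl2.
Opcml: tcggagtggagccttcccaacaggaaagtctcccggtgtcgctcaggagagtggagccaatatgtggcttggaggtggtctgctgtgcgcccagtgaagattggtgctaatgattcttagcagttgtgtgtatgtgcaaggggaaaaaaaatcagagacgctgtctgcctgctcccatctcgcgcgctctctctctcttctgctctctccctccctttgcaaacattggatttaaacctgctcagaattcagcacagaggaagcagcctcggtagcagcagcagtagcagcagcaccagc
Nrcam: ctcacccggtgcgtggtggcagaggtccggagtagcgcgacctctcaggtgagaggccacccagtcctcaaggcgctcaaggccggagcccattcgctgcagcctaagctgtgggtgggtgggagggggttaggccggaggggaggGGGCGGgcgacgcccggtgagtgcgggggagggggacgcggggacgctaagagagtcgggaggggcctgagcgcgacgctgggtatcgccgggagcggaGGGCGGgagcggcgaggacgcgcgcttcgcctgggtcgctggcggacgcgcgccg
Il1rapl1: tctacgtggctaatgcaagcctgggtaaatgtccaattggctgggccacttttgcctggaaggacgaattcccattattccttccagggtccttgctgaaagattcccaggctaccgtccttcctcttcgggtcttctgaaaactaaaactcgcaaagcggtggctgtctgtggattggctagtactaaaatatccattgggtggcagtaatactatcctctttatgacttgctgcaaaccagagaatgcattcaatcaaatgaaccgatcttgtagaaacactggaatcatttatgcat
Il1rapl2: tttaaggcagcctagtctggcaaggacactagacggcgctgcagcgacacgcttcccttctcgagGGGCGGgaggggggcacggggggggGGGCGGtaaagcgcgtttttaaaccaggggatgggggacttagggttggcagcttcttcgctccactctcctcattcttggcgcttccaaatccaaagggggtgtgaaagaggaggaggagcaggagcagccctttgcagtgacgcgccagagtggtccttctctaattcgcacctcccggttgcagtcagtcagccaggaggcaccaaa
GGGCGG stood at positions 147 and 246 in Nrcam and at 66 and 91 in Il1rapl2, counted from 1 at the 5′ end of the window, and the other 3 motifs were in none of the 13 promoter windows of the 9 members. Over all 32851 promoter windows, 35.7% held the GC box, 14.2% the first E-box, 7.15% the second and 13.6% the TATA box. The GC content was 53.7% for Opcml, 74% for Nrcam, 45% for Il1rapl1 and 60.3% for Il1rapl2, beside a median of 52.7% over all windows.

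Opcml was the member with the sharpest class pattern, and its class was the intermediate cells. Its level in intermediate nuclei was 2840.2 CPM (2784 to 2898) in the MethFix library and 2909.9 (2848 to 2973) in the RNAlater library. Outside them, in the other 5 main classes, the level lay between 0 and 30.6, the highest being 8 UMIs in the spindle nuclei of MethFix. Outside the main classes Opcml was higher than this in some clusters. A cluster led by Kcnd2 and Fgf14 had it at 440 CPM in MethFix and 307 in RNAlater, where 2 nuclei held 19 of 55 and 23 of 42 UMIs. Opcml in marginal nuclei stood at 0.231% and 0.157% of its intermediate level, and Tyr, a marker of the class, at 0.470% and 0.238%. A UMI of Opcml was found in 90.3% and 95.4% of intermediate nuclei, with a median of 7 and 12 UMIs per nucleus, and in 2.53% and 2.68% of marginal nuclei, whose median depths were 4552 and 6088 UMIs against 4030 and 5445.5. Nuclei were also thinned to 1000 UMIs, and those with fewer were left out of every thinned share. This kept 816 of 853 and 522 of 522 intermediate nuclei and 1055 of 1105 and 670 of 671 marginal nuclei. The thinned share was 79.2% (76.2 to 81.9) and 78.5% (74.8 to 82.0) in intermediate nuclei and 0.758% and 0.597% in marginal nuclei. Relative to intermediate nuclei, marginal Opcml was below marginal Tyr in both libraries. Spindle Opcml stood at 1.08% and 0.558% of its intermediate level, beside 0.773% and 0.934% for Tyr, so the order there differed between the libraries. Whether the UMIs of Opcml outside intermediate nuclei came from free RNA was not tested, and nothing on expression in marginal nuclei is read from these shares.

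Nrcam had the same highest main class and a wider low-level presence. Its level in intermediate nuclei was 1978 CPM (1931 to 2026) in the MethFix library and 2003 (1951 to 2055) in the RNAlater library, and a UMI was found in 95.9% and 99.4% of them. Marginal nuclei had 57.9 and 60.0, basal nuclei 45.6 and 40.4, and spindle nuclei 11.5 and 5.42 CPM. Relative to intermediate nuclei, the marginal level of Nrcam was 2.93% and 3.00%, above the 0.470% and 0.238% of Tyr and the 1.79% and 1.43% of Dct, an abundant melanocyte enzyme. In basal nuclei the order was the other way for Dct, at 5.46% and 5.43% beside 2.31% and 2.02% for Nrcam. Whether the marginal and basal UMIs of Nrcam came from free RNA was not tested. Per 100 kb of gene span, Nrcam was the higher of the pair in intermediate nuclei, at 724 and 733 CPM against 250.3 and 256 for Opcml, while in CPM Opcml was the higher.

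**Figure D1:**
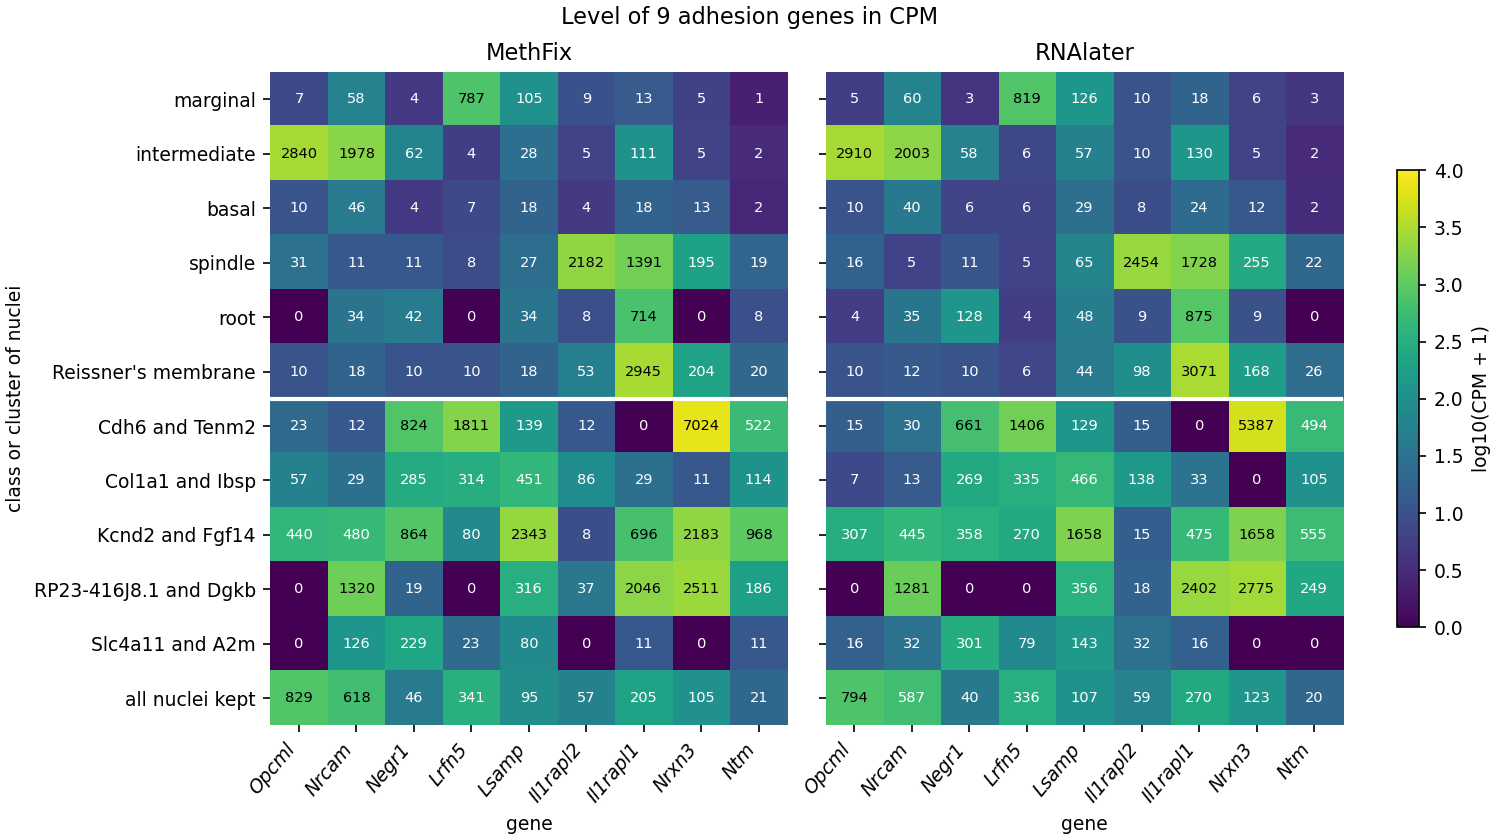
Levels of the 9 genes (columns) in 6 main classes and 5 matched clusters named by 2 leading genes (rows) and over all nuclei kept, for MethFix and RNAlater; numbers are CPM, and colour is log10(CPM + 1). Opcml and Nrcam peak in intermediate nuclei among the main classes, Lrfn5 in marginal, Il1rapl2 in spindle and Il1rapl1 in Reissner's membrane nuclei, while Nrxn3 peaks in the Cdh6 and Tenm2 cluster at 7024 and 5387.

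Most intermediate nuclei held a UMI of both Opcml and Nrcam. Whether this exceeded what their separate shares would give was not tested. After thinning to 1000 UMIs, 532 of 816 intermediate nuclei of MethFix held a UMI of Opcml and of Nrcam, 114 held Opcml alone, 137 Nrcam alone and 33 neither. In RNAlater the numbers were 335, 75, 86 and 26 of 522 nuclei. Within the class, Opcml varied more than Nrcam. The 3 intermediate clusters of RNAlater had Opcml at 3464, 1602 and 2908 CPM and Nrcam at 2162, 1659.8 and 1933. The cluster of 135 nuclei with the lowest Opcml was as deep as the others, with a median of 5704 UMIs, and its Tyr level was 4689, beside 5529 in the largest cluster. Counted in MethFix over the same barcodes, the values were 3445, 1685 and 2873 for Opcml, which repeats the reading on shared barcodes and is no replicate. A different set of 135 MethFix nuclei, led by Taf1d and Phlda1 and sharing 1 barcode with the RNAlater nuclei kept, had Opcml at 1254 (1125 to 1394) and Nrcam at 1327 (1194 to 1470.3), at a median depth of 1974 UMIs.

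**Figure D2:**
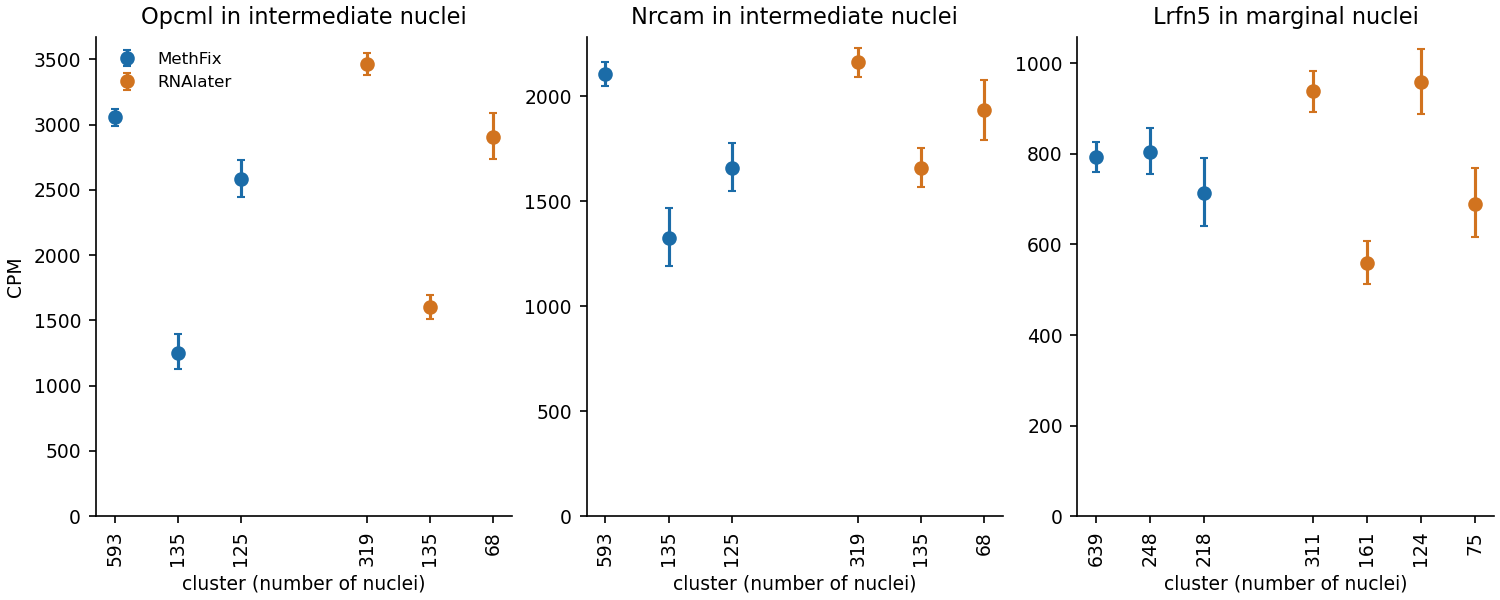
CPM (vertical axis, from 0) of Opcml and Nrcam in each intermediate cluster and of Lrfn5 in each marginal cluster; the horizontal axis lists clusters by their number of nuclei, and bars are 95% Poisson intervals. Opcml runs from 1254 to 3056 in MethFix and from 1602 to 3464 in RNAlater, and Nrcam from 1327 to 2107 and from 1659.8 to 2162.

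Negr1 was higher in intermediate nuclei than in marginal, basal, spindle and Reissner's membrane nuclei, though far below Opcml and Nrcam. It stood at 62.4 (54.2 to 71.4) and 58.0 (49.5 to 67.5) CPM there, and at 3.80 and 3.04 in marginal and 3.80 and 5.90 in basal nuclei. A UMI was found in 11.7% and 13.4% of intermediate nuclei. Root nuclei read 42.5 in MethFix, from 5 UMIs, and 127.5 in RNAlater, where 19 of the 29 UMIs lay in 2 nuclei. Root and intermediate nuclei could therefore not be ordered for Negr1.

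Lrfn5 was the marginal cell member. Marginal nuclei had 787 CPM (762 to 813) in the MethFix library and 819 (791 to 847) in the RNAlater library, and no other main class exceeded 10.1. A UMI of Lrfn5 was found in 73.4% and 79.3% of marginal nuclei and, at 1000 UMIs per nucleus, in 44.5% (41.4 to 47.5) and 44.3% (40.5 to 48.2). In intermediate nuclei the thinned shares were 0.490% and 0.958%. The marginal clusters ranged from 713 to 805 in MethFix and from 559 to 958 in RNAlater, so that no marginal cluster lacked the gene.

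Lsamp was low in all main classes and highest in marginal nuclei, at 105 (95.8 to 114.5) and 126 (115 to 137) CPM. Intermediate nuclei had 27.8 and 57.3, spindle nuclei 26.7 and 65.0, and root nuclei 34.0 and 48.4 from 4 and 11 UMIs. The spindle interval of 33.6 to 113.5 in RNAlater ended just under the marginal one. Thinned to 1000 UMIs, 7.01% and 8.51% of marginal nuclei held a UMI, beside 2.33% and 5.75% of intermediate nuclei.

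**Figure D3:**
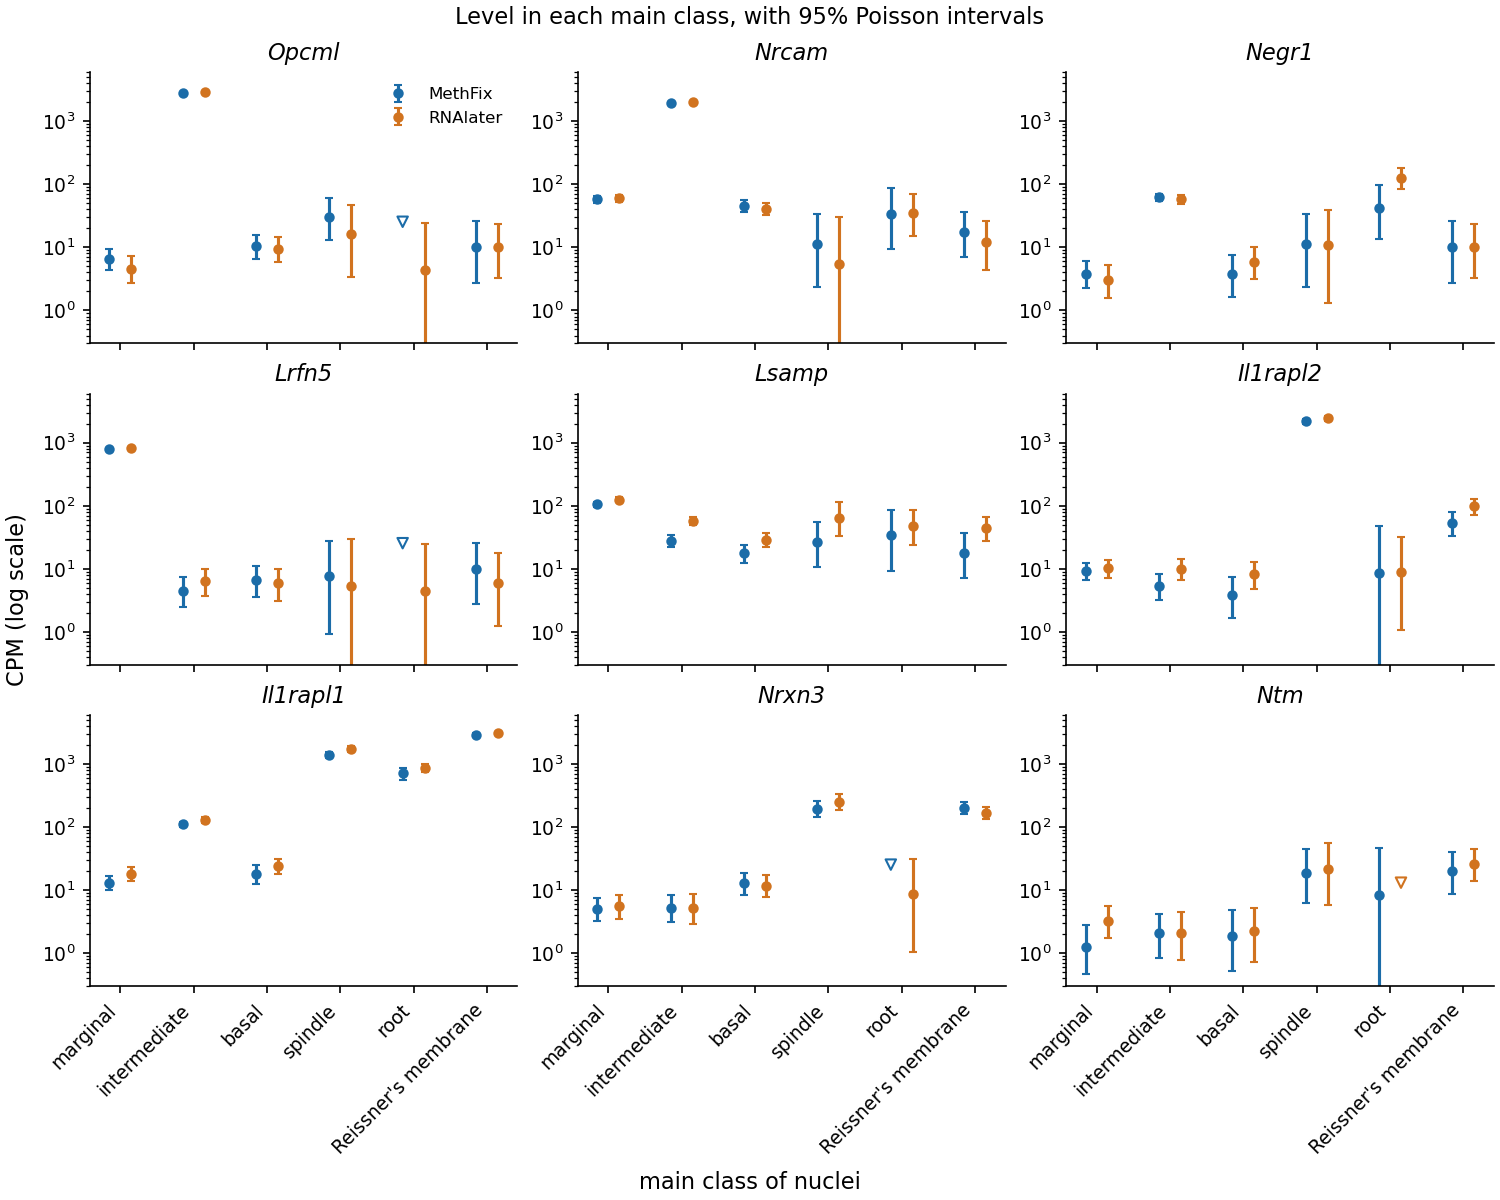
Level of each gene in the 6 main classes (horizontal axis) in CPM on a log scale, for MethFix and RNAlater; points are levels, bars 95% Poisson intervals, and open triangles mark the level that 3 counts would give where the count was 0. Opcml at 2840.2 and 2909.9, Lrfn5 at 787 and 819 and Il1rapl2 at 2182 and 2454 each stand far above all other main classes, while Lsamp stays between 17.6 and 126.

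The paralogs Il1rapl1 and Il1rapl2 overlapped in spindle cells and parted elsewhere. Il1rapl2 in spindle nuclei was at 2182 (2007 to 2369) CPM in the MethFix library and 2454 (2233 to 2690.5) in the RNAlater library. Reissner's membrane nuclei came next at 52.9 and 98.1, and the remaining main classes lay between 3.80 and 10.1. A UMI was found in 65.6% and 71.2% of spindle nuclei, with a median of 2 and 4 UMIs.

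Il1rapl1 had a graded pattern over the epithelial edge classes. Reissner's membrane nuclei had 2945 (2778 to 3119) and 3071 (2919.7 to 3229) CPM. Spindle nuclei followed with 1391 (1252 to 1541) and 1728 (1544 to 1928), and root nuclei with 714 (569.5 to 884) and 875 (758 to 1005). Intermediate nuclei had 111 and 129.6, and basal and marginal nuclei between 13.1 and 24.1. The intervals of the first 4 classes did not overlap in either library, whereas those of basal and marginal nuclei did. These intervals do not cover the spread between nuclei. In MethFix and RNAlater, 2 root nuclei held 28 of 84 and 46 of 199 UMIs, and 2 spindle nuclei 53 of 364 and 50 of 319. Without these UMIs the levels would read 1188 and 1457 in spindle nuclei and 476 and 673 in root nuclei, which keeps the order. At 1000 UMIs per nucleus, 80.3% and 79.1% of Reissner's membrane nuclei, 49.5% and 58.8% of spindle nuclei and 32.4% and 40.7% of root nuclei held a UMI.

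Unnamed clusters that scored highest for root and interdental markers also carried Il1rapl1. An unnamed MethFix cluster of 38 nuclei, led by Prss36 and Epyc, stood at 1397 (1178 to 1645) CPM, and 24 of its nuclei had a UMI. An unnamed RNAlater cluster of 13 nuclei, led by Aox2 and Otoa, stood at 3715 (2991 to 4562), with a UMI in 10 of 13. The MethFix cluster shared 20 nuclei with the RNAlater root class and 13 with the Aox2 and Otoa cluster, and the latter shared none with the MethFix root class. The root level depends on where the class is drawn.

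In single thinned spindle nuclei the paralogs were found both together and apart. Whether joint detection exceeded what their separate shares would give was not tested. Both had a UMI in 30 of 91 MethFix nuclei, Il1rapl1 alone in 15, Il1rapl2 alone in 19 and neither in 27. In RNAlater the numbers were 18, 12, 11 and 10 of 51. In Reissner's membrane nuclei, 99 of 132 and 103 of 139 held Il1rapl1 alone and 7 in each library held both.

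Nrxn3 was low in the strial classes and very high in a small cluster outside them. Spindle nuclei had 195 (145 to 256) and 255 (187 to 339) CPM and Reissner's membrane nuclei 204 (162 to 254) and 168 (134 to 208), with intervals that overlapped. The other main classes lay between 0 and 12.8. The cluster led by Cdh6 and Tenm2, with Dcc, Robo2 and Grik1 also among its leading genes, held 38 and 41 nuclei and was named by no marker list. Its Nrxn3 level was 7024 (6475 to 7606) in the MethFix library and 5387 (4998 to 5799) in the RNAlater library, and 94.7% and 85.4% of its nuclei had a UMI. It also had the highest Lrfn5, at 1811 and 1406, with Negr1 at 824 and 661 and Ntm at 522 and 494. Il1rapl1 had 0 UMIs there in both libraries, which allows up to 34.8 and 22.8 CPM (3 counts). Lrfn5 was thus higher in this cluster than in marginal nuclei, with intervals apart (1538 to 2119 and 1210.4 to 1623, against the marginal values above). Those intervals do not cover the spread between nuclei: 2 nuclei held 49 of 156 Lrfn5 UMIs in MethFix and 52 of 185 in RNAlater. Without these UMIs the levels would read 1242 and 1011, which are still above the marginal levels.

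Ntm was close to absent from the strial classes. It had between 0 and 26.0 CPM in the main classes, from at most 13 UMIs in any class and library. Its highest levels were in the cluster led by Kcnd2 and Fgf14, at 968 (803 to 1156) and 555 (437 to 695), and in the Cdh6 and Tenm2 cluster. Lsamp was highest in the Kcnd2 and Fgf14 cluster too, at 2343 (2082 to 2627) and 1658 (1449 to 1888). Of its 71 and 90 nuclei 35 were in the cluster in both libraries, and 14 of the MethFix nuclei formed the RNAlater macrophage-like cluster. It was shallow, with a median of 1323 and 994 UMIs, and carried markers of several cell types: the neuron list summed to 1879 and 833 CPM, the Schwann cell list to 984 and 1183, the macrophage list to 1104 and 58.4 and the intermediate list to 1767 and 2432. Few nuclei made up these levels: in MethFix 2 of 71 nuclei held 132 of 273 Nrxn3 UMIs, and in RNAlater 2 of 90 nuclei held 123 of 227 Lsamp UMIs, 53 of 76 Ntm UMIs and 196 of 227 Nrxn3 UMIs. Without the UMIs of those nuclei the RNAlater levels would read 759.5 for Lsamp, 168 for Ntm and 226 for Nrxn3.

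The remaining clusters showed how the members part from each other. In 14 and 13 nuclei led by RP23-416J8.1 and Dgkb, Nrcam was found in every nucleus, at 1320.4 and 1281 CPM, and Il1rapl1 stood at 2046 and 2402. Nrxn3 read 2511 and 2775 there, but all of its 135 and 156 UMIs lay in 2 nuclei, which had the same barcodes in both libraries. In bone-like nuclei led by Col1a1 and Ibsp, Lsamp was at 451 and 466, Lrfn5 at 314 and 335, Negr1 at 285.5 and 269 and Ntm at 114 and 105. Fibrocyte-like nuclei led by Slc4a11 and A2m had Negr1 at 229 and 301, of which 13 of 20 and 14 of 19 UMIs lay in 2 nuclei, and without these UMIs the levels would read 80.2 and 79.2. A MethFix cluster of 85 nuclei rich in motile cilia genes such as Dnah12 had Opcml at 656, Nrcam at 577 and Lrfn5 at 337, with a UMI in 70, 66 and 56 of its nuclei. Marginal and intermediate markers were the 2 highest of the marker lists in it, and no RNAlater cluster was led by such genes.

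**Figure D4:**
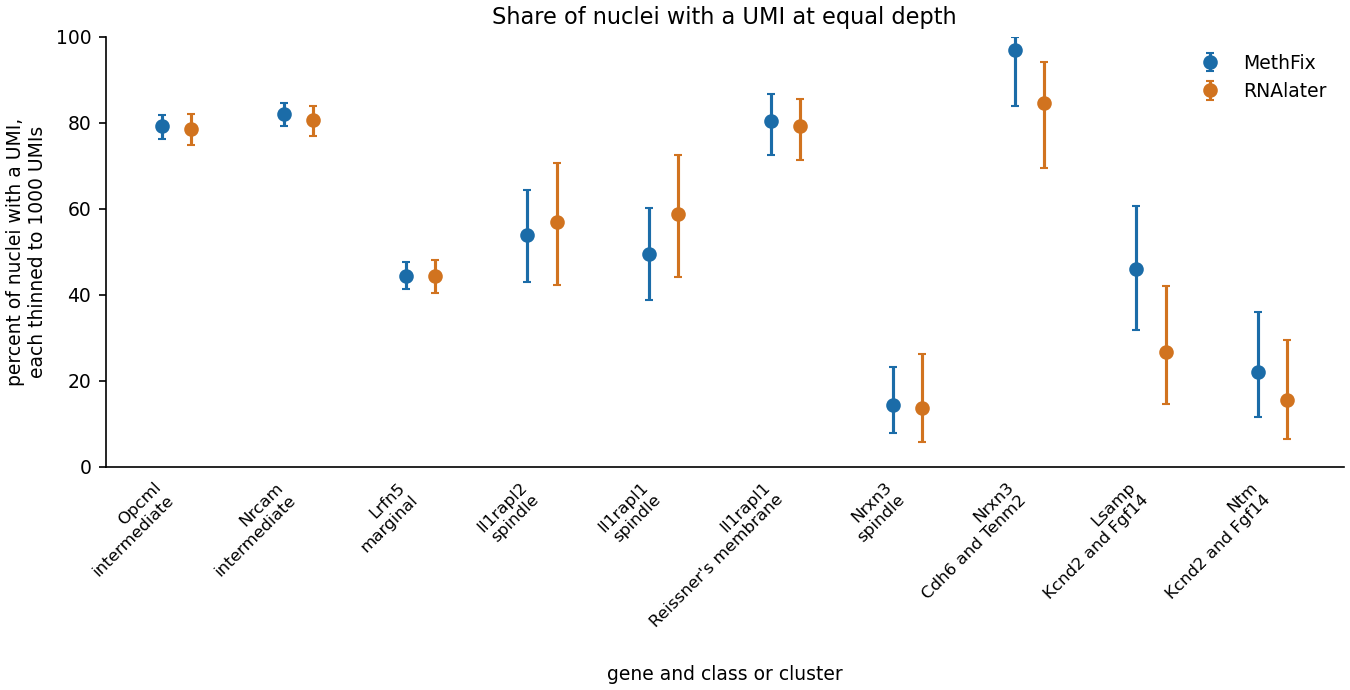
Percent of nuclei with a UMI (vertical axis) after thinning to 1000 UMIs, for 10 pairs of a gene and a class or cluster (horizontal axis) in both libraries. Bars are exact 95% binomial intervals. Nuclei with fewer than 1000 UMIs are left out, which leaves 50 of 71 and 45 of 90 nuclei in the Kcnd2 and Fgf14 cluster. Nrcam in intermediate nuclei is at 82.0% and 80.7% and Il1rapl1 in Reissner's membrane nuclei at 80.3% and 79.1%, whereas Nrxn3 in spindle nuclei is at 14.3% and 13.7%.

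The class pattern was then set beside all genes. A class ratio is the log2 of the CPM of a class over those of the other main classes pooled, averaged over the libraries, and a gene was called where it was at least 2 (4-fold) in both libraries. Of 11039 genes with at least 50 UMIs in the main classes of each library, 4.85% were called in marginal, 3.75% in intermediate, 4.96% in basal, 2.41% in spindle, 2.11% in root and 2.77% in Reissner's membrane nuclei. Of the members, 8 had enough UMIs, Ntm being the exception. Lrfn5 was called in marginal nuclei (7.11), and Opcml (8.56), Nrcam (5.33) and Negr1 (3.19) in intermediate nuclei. Spindle nuclei had Il1rapl2 (7.72), Nrxn3 (3.93) and Il1rapl1 (3.01), and Reissner's membrane nuclei Il1rapl1 (4.96) and Nrxn3 (4.00). No member was called in basal or root nuclei, though Il1rapl1 in root nuclei was at 1.90, just under the cut in both libraries (1.95 and 1.85). Lsamp, at 1.80 in marginal nuclei, was called in no class. A wider root class of 86 and 82 nuclei, chosen after seeing the data, took in the MethFix cluster led by Prss36 and Epyc, the RNAlater cluster led by Aox2 and Otoa and the RP23-416J8.1 and Dgkb cluster, and had 3 members called, Negr1, Nrxn3 and Il1rapl1. Of 11094 genes, 3.02% were called in this wider class, beside 2.11% in the root class. Without the RP23-416J8.1 and Dgkb cluster, whose Nrxn3 UMIs lay in 2 nuclei, Negr1 and Il1rapl1 were the 2 called. Of 11067 genes, 2.77% were then called. In all, 7 members were called in some class, beside 18.4% of all genes, and nothing is read from this count because the members were chosen on the same levels.

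**Figure D5:**
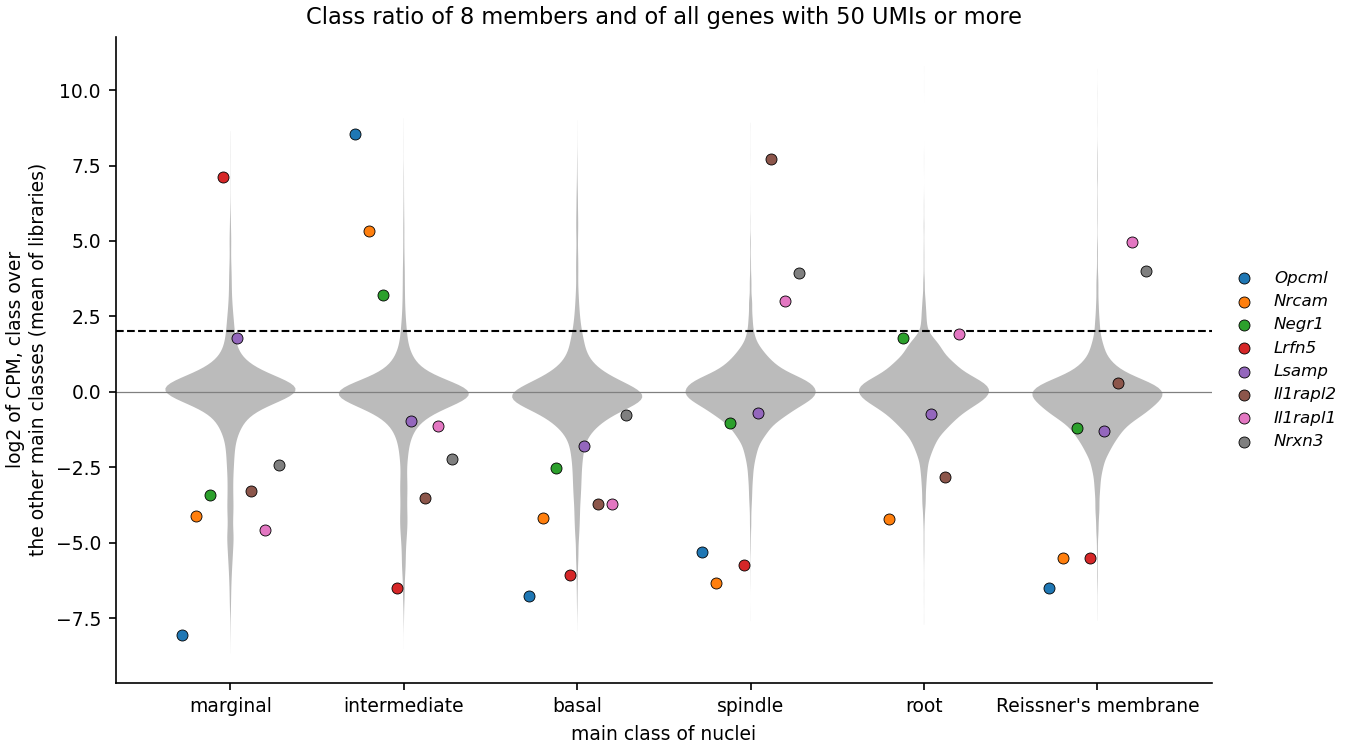
Class ratio (vertical axis, log2, mean of both libraries) of 8 members as points over the distribution of all 11039 genes with 50 UMIs or more (grey) in each main class; the dashed line is the call at 2, and root ratios of Opcml, Lrfn5 and Nrxn3 are left out because a count of 0 makes them bounds. Opcml at 8.56, Il1rapl2 at 7.72 and Lrfn5 at 7.11 lie in the upper tails of their classes.

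Partners and relatives of the members were read from a list of 76 further adhesion genes, chosen with earlier results of these data known. Of these, 41 had enough UMIs, and 26 of the 41 (63.4%) were called in some main class, beside 18.4% of all genes. The minimum was set on UMIs summed over the main classes, so a gene could pass it mainly through its highest class. Nothing is therefore read from this share or from the counts by class. The list genes called were 3 in marginal, 7 in intermediate, 5 in basal, 3 in spindle, 4 in root and 9 in Reissner's membrane nuclei. The shares of all genes by class are given above. The median class ratio of the list was below that of all genes in marginal (-1.45 against 0.018), intermediate (-0.97 against -0.13) and basal nuclei (-0.61 against -0.18). It was slightly below in spindle (-0.19 against -0.06) and root nuclei (-0.08 against -0.02), and above only in Reissner's membrane nuclei (0.13 against -0.26). Basal nuclei, in which no member was called, had Nfasc, a relative of Nrcam, at 185 and 192 CPM (class ratio 6.82). Intermediate nuclei had Ncam1, an immunoglobulin-type adhesion molecule, at 1130.0 and 1193 (6.95), and the synaptic Slitrk5 at 44.3 and 56.6 (6.73). Slitrk1 stood at 18.0 and 21.1 in them against 0 and 0.566 in the other main classes. Spindle nuclei had Cntn1, a contactin, at 841 and 764 (8.91) and Clstn2, a calsyntenin, at 501 and 488 (5.79). In root nuclei the teneurin Tenm3 was at 1130.4 and 769 (5.58).

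Reissner's membrane nuclei, the main class with the highest Il1rapl1, also had the contactin Cntn4 at 749 and 663 (6.36) and Flrt2 at 1377 and 1348 (6.33). Ptprd, the receptor phosphatase whose product binds Il1rapl1, was at 2420.3 and 2521 in them (3.00) and at 2847 and 1930.3 in root nuclei (2.66). Nlgn1, a ligand of neurexins such as Nrxn3, was called in Reissner's membrane nuclei (2.52) and in intermediate nuclei (2.69). These are levels of RNA in the same classes, and no contact or binding was measured.

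The genes most like each member were taken by Pearson correlation of log2(CPM + 10) over 35 named clusters of both libraries, among 11415 genes. Unnamed clusters were left out. Among them were the Cdh6 and Tenm2 cluster, with the highest Nrxn3 and Lrfn5, and the Kcnd2 and Fgf14 cluster, with the highest Lsamp and Ntm. For those members the coefficients do not cover the cluster of the highest level. The same holds for Negr1, highest in the Kcnd2 and Fgf14 cluster of MethFix (864) and the Cdh6 and Tenm2 cluster of RNAlater (661). It also holds for Il1rapl1 in RNAlater, where the unnamed Aox2 and Otoa cluster was highest (3715). The clusters share nuclei across libraries, so the coefficients are descriptions. For Opcml the most alike genes were Bfsp2 (0.954), Spon1 (0.950) and Slc24a2 (0.948). For Nrcam they were Ednrb (0.933), the endothelin receptor of melanocytes, Shc4 (0.907) and Kndc1 (0.899). For Lrfn5 they were Il7 (0.948), Cdh18 (0.937) and Aldh1a2 (0.920). Il1rapl1 was closest to Rab15 (0.942), Scnn1b (0.895), an epithelial sodium channel subunit, and Anxa9 (0.881), and Nrxn3 to Kcnh8 (0.885), Tox3 (0.869) and Scnn1b (0.861). For Il1rapl2 they were Gm1661 (0.862), Arsj (0.860) and Gm43154 (0.852). Negr1 was closest to Slc4a10 (0.830), Hectd2 (0.816) and Gabrb1 (0.806), Ntm to Mark1 (0.856), Kcnb2 (0.811) and Kcnq3 (0.800), and Lsamp, with the lowest values, to Stim1 (0.706), Pik3cd (0.705) and Dus1l (0.693). Between members, the highest coefficients were 0.741 for Nrxn3 and Il1rapl1 and 0.725 for Opcml and Nrcam. The first of these leaves out the unnamed Cdh6 and Tenm2 cluster, where Nrxn3 was highest and Il1rapl1 had 0 UMIs. It keeps the RNAlater cluster led by RP23-416J8.1 and Dgkb, where 2 nuclei held all 156 Nrxn3 UMIs.

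Gates on single nuclei by the few defining genes gave the same highest gate for Opcml, Nrcam, Lrfn5 and Il1rapl2 with lower levels. Nuclei with at least 2 of Tyr, Dct and Kcnj13 detected numbered 948 and 626, of which 815 and 504 were in the intermediate class, and had Opcml at 2518 and 2501 and Nrcam at 1750.1 and 1713 CPM. Negr1 stood at 66.0 and 52.3 in this gate and was higher in the nuclei of no gate, at 101.9 and 87.9, so that it was not called in intermediate nuclei by gates. Nuclei with at least 2 UMIs of Kcnq1, a potassium channel gene of marginal cells, numbered 1057 and 726, with Lrfn5 at 739 and 725. Nuclei with at least 2 UMIs of Anxa1 were 43 and 21, of which 30 and 10 were in the spindle class, and had Il1rapl2 at 1088 and 1797 and Il1rapl1 at 886 and 1292. Nuclei that passed more than 1 gate, 248 and 139, were left out. They held 271 and 176 Il1rapl2 UMIs, more than the 140 and 139 UMIs in the nuclei of the Anxa1 gate. Those in no gate, 1076 and 799, had Nrxn3 at 346 and 388, above the Anxa1 gate (109 and 194) in both libraries.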

How the data were processed

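Single-nucleus RNA was measured in 2 libraries, MethFix and RNAlater. The authors deposited raw UMI counts per gene and barcode, made per the labels with Cell Ranger 3.0.1 on GRCm38; whether intronic reads or strand were used in counting, and the annotation release, are not given in the sources used here. The barcode and feature lists were deposited as names without values. The submitters' notes also name Scanpy 1.4.5.

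Following the study's methods, genes seen in fewer than 3 nuclei were dropped, as were nuclei with fewer than 200 genes, more than 8000 counts or a mitochondrial share above 10%. Doublets were removed with Scrublet (rate 0.1, 30 components) in scanpy 1.11.5, and nuclei were clustered with leidenalg 0.10.2 on 4000 variable genes and 10 neighbours at resolution 1 (MethFix) and 1.5 (RNAlater), with 85 adhesion genes left out. A cluster was named by the mean log2 ratio of its markers to the 25th percentile over clusters (10 CPM added), with a score of at least 1, 3 detected markers, 0.7 of the class's highest score, and a next score of at most 0.7 of its own, the last limit being set after clusters were seen. Clusters without a name were matched between libraries by shared barcodes and need 10 nuclei in each. Where a class had 0 UMIs, a ratio used a floor of 3 counts per library. Depth limits precision: class totals ran from 117657 UMIs (root, MethFix) to 4732211 (marginal, MethFix), and intervals are exact Poisson and Clopper-Pearson at 95%. The members, the gene lists and the markers were chosen with earlier results of these data known. The genes named are the 9 members, the first 10 list genes by class ratio (1 of them is not reported here), Ptprd and Nlgn1 beside them as partners of members, and the 3 most like genes of each member; clusters and single nuclei described outside the main classes were chosen after their values were seen. The scripts were tested on simulated data. No comparison between the preservation methods was tested. Alternatives used TMM factors of edgeR 4.0.16 and size factors of DESeq2 1.42.0 (R 4.3.3), other filters, resolutions, barcode sets and gates. Python 3.11.15, numpy 2.4.6, scipy 1.17.1 and pandas 2.3.3 were used.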

Additional observations from a re-analysis of the deposited data

Results flagged for a closer look

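Il1rapl2 in Reissner's membrane nuclei stood on opposite sides of the pooled other main classes in the 2 libraries, with a class ratio of -0.19 in MethFix and 0.77 in RNAlater. The difference was not tested. Spindle nuclei held 571 of the 642 and 453 of the 541 UMIs of that pool. The order of the classes did not flip: Reissner's membrane nuclei came next after spindle nuclei in both libraries. The counts in Reissner's membrane nuclei were 21 and 49 UMIs in 156 and 159 nuclei, of which 8 and 24 lay in the 2 nuclei with the most. Without these UMIs the levels would read 32.8 and 50.1 CPM. A UMI was found in 7.69% and 9.43% of these nuclei.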

How the results depend on the processing

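No paired analysis was possible because each preservation method has 1 library and no test was made. Over 12 alternatives and 2 added after seeing the data, 139 of 158 counts of called genes or members stayed within 1.5 times the reported count. Of 114 class ratios of members, 98 stayed between the lowest and the highest limit of the counting intervals of the 2 libraries (each member in the main class of its highest mean level, which is root for Negr1, and Negr1 in intermediate nuclei as well). The settings on the minimum of UMIs do not change a ratio and are not among the 114. No ratio changed sign. With no minimum of UMIs, 672 of 20576 genes were called in intermediate, 972 in basal, 3663 in spindle, 4047 in root and 2344 in Reissner's membrane nuclei. Ntm then joined the members called in spindle and in Reissner's membrane nuclei. With a minimum of 200 UMIs the counts were 270, 314, 118, 115 and 162 of 7044 genes. Nrxn3 then left the tested genes, and the members called were 2 in spindle and 1 in Reissner's membrane nuclei. Over the MethFix barcodes found in that matrix alone, with 11 Reissner's membrane nuclei, no root nuclei and 1 library, 5878 genes were tested. The counts were 354 in marginal, 261 in intermediate, 230 in basal, 155 in spindle and 1456 in Reissner's membrane nuclei. The members called in marginal nuclei were 2, Lsamp joining Lrfn5. In spindle and in Reissner's membrane nuclei they were Il1rapl1 and Il1rapl2, without Nrxn3. A wider root class of 86 and 82 nuclei, added after seeing the data, had 3 members called, Negr1, Nrxn3 and Il1rapl1, in place of 0. Without the RP23-416J8.1 and Dgkb cluster, in which 2 nuclei held all Nrxn3 UMIs, 2 members were called. More genes were called in general in these wider classes, 3.02% with that cluster and 2.77% without it, beside 2.11% in the root class. Under the gates, each gate was set against the nuclei of the other gates and of no gate, and nuclei that passed more than 1 gate were left out. The class ratio was then 7.44 for Opcml and 4.70 for Nrcam. For Negr1 in the intermediate gate it was 0.61, which ended its call. It was 3.92 for Lrfn5, 5.62 for Il1rapl2, 0.31 for Nrxn3 in the Anxa1 gate and 0.13 for Lsamp in the Kcnq1 gate. Over the MethFix barcodes found in that matrix alone the ratios were 6.92 for Opcml, 5.08 for Nrcam, 6.04 for Lrfn5, 3.28 for Lsamp, 6.87 for Il1rapl2 and 5.21 for Il1rapl1, and with the wider root class 5.08 for Nrcam, 4.65 for Il1rapl1 and 2.96 for Nrxn3. Thinning moved the share of nuclei with a UMI below its interval in 15 of 18 pairs of member and library. At resolution 0.5 no root class was named in MethFix. Classes of few nuclei limit the depth: 3 UMIs in the root nuclei of MethFix are 25.5 CPM.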
